A study of Mus musculus and Homo sapiens with 12 samples.

Results

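The 8 genes described here encode the nuclear machinery that writes, reads and erases N6-methyladenosine (m6A) on RNA: Mettl3, Mettl14, Wtap, Zc3h13, Rbm15, Ythdc1, Fto and Alkbh5 in mouse, and the genes of the same symbols in capitals in human. They were chosen by name and found by Ensembl identifier, 8 of the 54446 mouse genes and 8 of the 58676 human genes counted. No measured value entered the choice, although it was made with earlier results of these data known.

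In m6A methylation, METTL3 transfers the methyl group and METTL14, its partner in the catalytic heterodimer, helps to hold the RNA. WTAP, ZC3H13 and RBM15 belong to the regulatory part of the complex, which keeps the catalytic pair in the nucleus and on its targets. YTHDC1 is the nuclear reader of the mark, and FTO and ALKBH5 are the demethylases. On chromatin-associated RNA (caRNA), the RNA that stays in the chromatin fraction, m6A is known in embryonic stem cells to mark transcripts of repeats and of regulatory elements for decay. The libraries did not measure m6A: they measured how the RNAs of these genes were recovered by an antibody to another mark, 5-methylcytosine (m5C).

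caRNA of wildtype mouse embryonic stem cells (mESC) and of wildtype K562, an established human leukaemia line, was fragmented, and fragments were either pulled down with the m5C antibody (IP) or sequenced without pull-down (Input). Each of the 4 groups, mESC Input, mESC IP, K562 Input and K562 IP, held 3 libraries. The mESC were grown with LIF and the inhibitors CHIR99021 and PD0325901 and cleared of feeder cells on gelatin, and the K562 medium held puromycin by its label. No age or treatment was labelled, and the source of the mESC was labelled embryos. The study describes its genome-wide data as biological replicates, while the labels do not tie the libraries to separate cultures, so p-values measure the spread between these libraries.

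Counts in genes ran from 29007088 to 34752646 in mESC Input, 473398 to 592324 in mESC IP, 10477119 to 11865285 in K562 Input and 93110 to 111286 in K562 IP. The labels disagreed on 2 points: the antibody field named none for mESC IP and the m5C antibody for K562 Input, and the molecule field read total RNA although the titles said caRNA. Of 6 mESC markers 5 were detected, with a level in CPM, the usual scaling of counts by the total gene counts of a library, that summed to between 1396 and 1412 in Input, against 52.7 to 55.5 CPM for 6 feeder fibroblast markers, while Sox2 and Lum had 0 counts. Of 7 K562 markers 5 were detected, at a sum of 462 to 470 CPM in Input, with HBG2 and HBE1 at 0. Most genes that lie inside another gene on the same strand had 0 counts, as given below. Whether this holds for the markers at 0, Sox2 among them, was not tested, so their zeros do not show absence of the RNA. K562 carried the cell type label lymphoblast, and 5 lymphoid markers summed to 0.382 to 1.21 CPM. In IP the sums were 534 to 670 CPM for the mESC markers and 35.9 to 71.4 CPM for the fibroblast markers, and in K562 593 to 719 CPM for its own markers and 9.26 to 32.2 CPM for the lymphoid ones. The part of these cells in the results was not tested. The K562 Input libraries differed from each other by about counting noise over genes (chi-square per degree of freedom from 0.905 to 1.04). Over 10 bins of GC content the value was larger (38.5 to 176), as in mESC Input (38.5 to 198). The largest shift of a bin between K562 Input libraries was small, 0.0263 to 0.0596 on the log2 scale. These values do not show that the K562 Input libraries came from separate cultures. The libraries were kept as 3 samples, and the K562 p-values treat them as independent.

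The deposited counts behaved as counts over whole gene bodies, introns included, on the strand of the gene. Of the 606 mouse genes that lie inside another gene on the same strand with their exons apart, 99.3% had 0 counts in all 6 mESC libraries, against 17.3% of those inside a gene on the opposite strand. In human the shares were 93.5% and 40.8%. A level of a long gene such as Fto therefore included intronic RNA, in a share that the counts do not give, and bases shared with a neighbour on the same strand were lost. This bore on mouse Ythdc1, which shares 39.7% of its body with Gm43055, and hardly on Fto (2.45%) or human FTO (0.754%). The other members share none in the annotation used. Mettl3 and METTL3 overlap Tox4 and TOX4 on the opposite strand.

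The 8 genes differ widely in size, and Fto is by far the longest of them. In mouse (GRCm38) Mettl3 lies at chr14:52294841-52305128 and Mettl14 at chr3:123368297-123386108, both on the minus strand. Wtap lies at chr17:12966796-12994169 (minus), Zc3h13 at chr14:75284373-75344426 (plus), Rbm15 at chr3:107325421-107333673 (minus) and Ythdc1 at chr5:86804221-86836659 (plus). The demethylase genes Fto and Alkbh5 lie at chr8:91313525-91668439 and chr11:60536381-60558512, both on the plus strand. Gene bodies thus ran from 8.25 kb for Rbm15, of which 89.9% is exon, to 355 kb for Fto, of which 3.67% is exon.

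In human (GRCh38) METTL3 lies at chr14:21498133-21511342 (minus), METTL14 at chr4:118685392-118715433 (plus), WTAP at chr6:159725585-159756319 (plus) and ZC3H13 at chr13:45954465-46052759 (minus). RBM15 lies at chr1:110338506-110346681 (plus), YTHDC1 at chr4:68310387-68350090 (minus), FTO at chr16:53701692-54158512 (plus) and ALKBH5 at chr17:18183078-18209954 (plus). All 8 mouse genes lay below the median gene body GC content of the genes tested, from 35.7% for Ythdc1 to 45.3% for Fto against a median of 45.6%. In human 7 of 8 did, from 34.9% for ZC3H13 upwards against a median of 44.3%, with ALKBH5 above it at 50.2%. The cytosine share of the Ythdc1 body, 16.2% on the sense strand, was at percentile 0.198 of the mouse genes tested, and that of human YTHDC1, 16.1%, at percentile 0.339 of the human ones.

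Whether RNAs of the m6A machinery were recovered by the m5C antibody in mESC was asked first. Relative to Input, the RNAs of all 8 genes were lower in IP under TMM and RLE scaling, 7 with scaling by library size alone and 5 with Input thinned to the depth of IP. Under TMM scaling, which sets libraries by a trimmed mean of gene ratios, the log2 values ran from -2.69 to -1.05. Of 20244 genes tested, 82% were called, 42.1% lower and 39.9% higher, and lower were 50.2% of the 15641 protein-coding ones. The median of the 8 was -1.93, against -0.17 over all genes tested and -0.70 over protein-coding genes.

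The catalytic pair was measured with few IP reads. Mettl3 had 35.96, 34.4 and 36.8 CPM in the 3 Input libraries and 21.1, 32.3 and 45.6 CPM in IP, from 10, 19 and 27 counts. The ranges overlapped. Its fitted log2 IP/Input was -1.05 (SE 0.23, adjusted p = 0.000547, edgeR), but -0.08 with library size scaling alone, where it was not called (adjusted p = 0.791, the highest of 14 alternatives, from 4.32e-10), and 0.15 with Input thinned. Mettl14 had 31.5, 32.8 and 29.6 CPM in Input and 31.7, 10.2 and 10.1 CPM in IP, where replicate 1 reached the Input level and the other libraries did not. Its log2 IP/Input was -1.91 (SE 0.32, adjusted p = 3.57e-05, edgeR), and -2.55 without IP replicate 1.

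Among the regulatory subunits, Wtap and Rbm15 were clearly lower in IP and Zc3h13 less so. Wtap, the subunit that binds the catalytic pair, had 176, 172 and 170 CPM in Input and 63.4, 51.0 and 65.8 CPM in IP. Its log2 IP/Input was -2.50 (SE 0.14, adjusted p = 9.49e-11, edgeR). Rbm15, an RNA-binding subunit, had 118, 121 and 123 CPM in Input and 42.2, 54.4 and 50.6 CPM in IP, a log2 of -2.26 (SE 0.16). Neither gene's IP values overlapped its Input values. Zc3h13, which bridges WTAP to RNA-binding partners, was abundant in both kinds of library, with 443, 421 and 424 CPM in Input and 353, 391 and 355 CPM in IP. All IP values lay below Input, with a log2 of -1.20 (SE 0.07, adjusted p = 3.44e-10, edgeR), which was -0.23 with library size scaling and -0.03 with Input thinned.

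Ythdc1, the reader, had 97.5, 96.0 and 103 CPM in Input and 48.6, 57.8 and 43.9 CPM in IP, with no overlap. Its log2 IP/Input was -1.95 (SE 0.17, adjusted p = 3.06e-08, edgeR). Both demethylases were lower too. Fto, the most counted of the 8, had 786, 806 and 783 CPM in Input and 501, 417 and 447 CPM in IP, a log2 of -1.78 (SE 0.07, adjusted p = 1.4e-12, edgeR). Alkbh5 had 76.9, 75.5 and 80.0 CPM in Input and 19.01, 30.6 and 20.3 CPM in IP, a log2 of -2.69 (SE 0.22, adjusted p = 1.12e-08, edgeR), the lowest of the 8, and 5.32% of all genes tested lay lower. IP and Input values did not overlap for 6 of the 8 genes, while 27.6% of all genes tested had every IP value below every Input value.

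**Figure D1:**
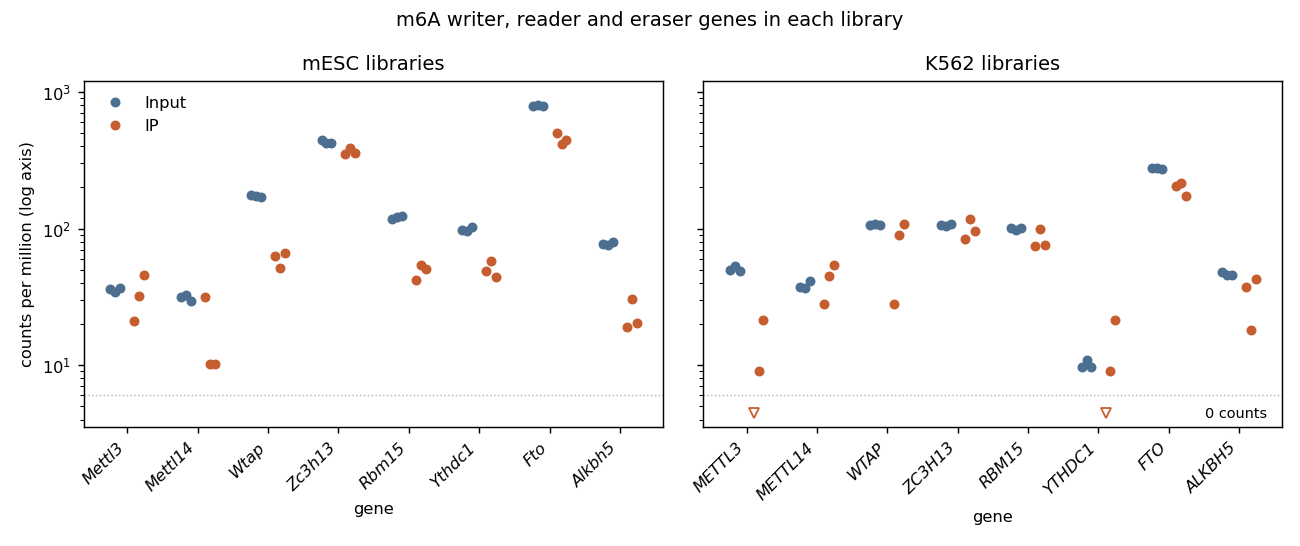
CPM (log axis) of each gene in every library, Input in blue and IP in orange, mESC on the left and K562 on the right, with libraries at 0 counts drawn as open triangles under the dotted line. In mESC the IP values of 6 genes lie below Input, with overlap for Mettl3 and Mettl14. In K562 the IP values are wider, and METTL3 and YTHDC1 have 1 IP library at 0.

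Much of the distance from 0 depended on how libraries were scaled. With library size scaling the median over all mESC genes was 0.80 in place of -0.17, and 67.2% of calls were higher in place of 48.7%. Relative to the median of all genes, the 8 genes were lower by 0.88 for Mettl3 and 1.03 for Zc3h13 at one end, and by 2.33 for Wtap and 2.52 for Alkbh5 at the other. Exon or gene body GC content as an offset left 8 of 8 lower, with medians of -1.71 and -1.85.

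**Figure D2:**
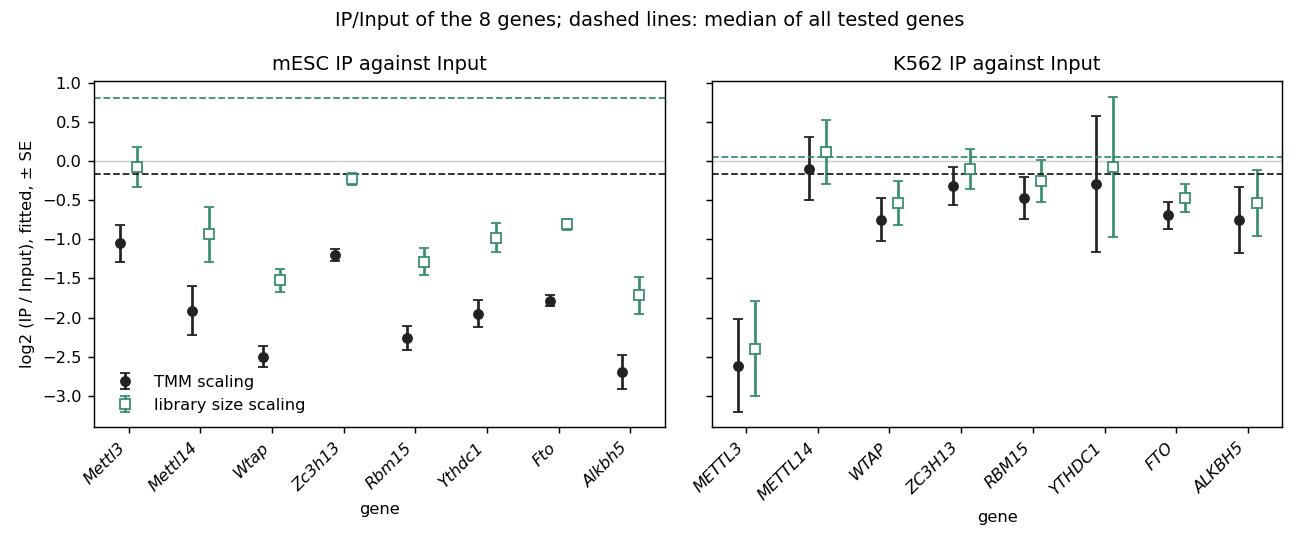
Fitted log2 IP/Input with its standard error for each gene in mESC (left) and K562 (right), filled circles under TMM scaling and open squares under library size scaling alone, each fit over 6 libraries. Dashed lines are the medians of all tested genes in the same colours. In mESC all 8 genes lie below the median under both scalings, although Mettl3 is not called under library size scaling. In K562 METTL3 stands lowest, at -2.61.

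Ratios between genes of the same library do not depend on scaling, and in mESC 3 of the 4 ratios tried did not overlap between IP and Input. The share among other gene pairs was not measured, and 82% of all genes tested were called in mESC, so the count alone says little. Zc3h13 had 2.49 ± 0.0342 (SD, n = 3) counts for each Wtap count in Input and 6.21 ± 1.27 (SD, n = 3) in IP, with no overlap. Alkbh5 had 0.0979 ± 0.00424 counts for each Fto count in Input and 0.0522 ± 0.0187 in IP (SD, n = 3). Mettl3 had 0.362 ± 0.00603 counts for each Ythdc1 count in Input and 0.677 ± 0.319 in IP (SD, n = 3). Each of these 3 ratios reached p = 0.1 in a two-sided exact permutation test, the smallest that 3 libraries against 3 allow, or 0.175 after adjustment over the 7 ratios tested. Mettl3 to Mettl14 was 1.14 ± 0.0977 in Input and 2.78 ± 1.95 in IP (SD, n = 3), and the libraries overlapped (exact permutation p = 0.4). Summed over libraries, that ratio was 1.14 (95% exact interval 1.09 to 1.20) in Input and 2.07 (1.29 to 3.42) in IP, an interval that covers counting error only.

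The same question in K562 had far fewer reads behind it. At their Input levels the 8 genes would give about 1.05 counts per IP library for YTHDC1 and 28.7 for FTO, with the rest between 4.01 and 11.1. In K562 3 of the 8 genes were lower in IP, METTL3, WTAP and FTO, and none was higher, where of the 14522 genes tested 31.9% were called, 16.8% lower and 15% higher. The number lower was 2 with RLE or library size scaling and 0 with Input thinned. The median of the 8 was -0.58 and that of all genes -0.17, or -0.21 over protein-coding genes.

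METTL3 was the lowest of the 8 in K562. It had 49.6, 53.1 and 49.3 CPM in Input and 0, 8.99 and 21.5 CPM in IP, where the whole group held 3 counts. The ratio of summed CPM, IP over Input, was 0.190, with a 95% Clopper-Pearson interval of 0.0390 to 0.555. The fitted log2 was -2.61 (SE 0.59, adjusted p = 0.000124, edgeR), and the adjusted p ran from 6.17e-06 to 0.0986 over 15 alternatives. The log2 was -2.01 without IP replicate 1, which held no METTL3 count, and -3.68 without IP replicate 3, which held 2. Its partner METTL14 had 37.6, 36.6 and 41.2 CPM in Input and 27.8, 44.9 and 53.7 CPM in IP, with overlapping ranges and a log2 of -0.10 (SE 0.40), and its ratio of 1.08 had an interval of 0.576 to 1.86.

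WTAP had 106, 107 and 107 CPM in K562 Input and 27.8, 89.9 and 107 CPM in IP, so that replicate 1 alone stood well below Input. Its log2 of -0.75 (SE 0.28, adjusted p = 0.0259, edgeR) became -0.34 (adjusted p = 0.45) without that library, and its adjusted p ran from 0.000633 to 0.745 over 15 alternatives. The WTAP ratio of summed CPM, IP over Input, was 0.692, with a 95% Clopper-Pearson interval of 0.438 to 1.04, which includes 1. The other regulatory subunits were not called: ZC3H13 had 105 to 109 CPM in Input and 83.4 to 117 CPM in IP (log2 -0.32, SE 0.25), and RBM15 96.8 to 101 CPM and 74.1 to 98.8 CPM (log2 -0.47, SE 0.27). Both ranges overlapped.

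YTHDC1 was near the limit of detection in K562 IP. It had 9.69, 10.9 and 9.74 CPM in Input and 0, 8.99 and 21.5 CPM in IP, again 3 counts in sum, with a ratio of 0.949 and an interval of 0.195 to 2.80, so a difference within that interval was not detectable at this depth. FTO had 277, 277 and 274 CPM in Input and 204, 216 and 172 CPM in IP, with no overlap and a log2 of -0.69 (SE 0.17, adjusted p = 0.000655, edgeR). This call held under scaling by RLE and library size and was lost with gene body GC content as an offset (log2 -0.43, adjusted p = 0.053) and with Input thinned (adjusted p = 0.055). ALKBH5 had 48.0, 45.5 and 45.6 CPM in Input and 37.1, 17.97 and 43.0 CPM in IP. Its log2 of -0.75 (SE 0.42, adjusted p = 0.168, edgeR) was not called although the ranges did not overlap, which held for 3 of the 8 genes and for 24.4% of all genes tested with IP below Input.

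Whether IP/Input differed between the cell lines was tested as an interaction of line and library kind, over 14053 genes with the same symbol in mouse and human. Species, cell line and library preparation cannot be told apart in it. Of the 8 genes METTL3 alone was called, lower in K562 by 2.69 (SE 0.77, adjusted p = 0.00838, edgeR), where 29.4% of genes were called, 19.6% lower and 9.73% higher. The 12 libraries were scaled together here, so the differences are not those between the separate fits of each line. For METTL3 the separate fits gave -2.61 in K562 and -1.05 in mESC. The median difference over all genes was -0.30, and METTL3 stood at -2.39 relative to it. The call was lost without K562 IP replicate 1 (log2 -2.07, adjusted p = 0.069) and without a filter on low counts (adjusted p = 0.0518), and its adjusted p ran from 0.00177 to 0.069 over 20 alternatives. Without K562 IP replicate 3 the difference was -3.78. The ratio of METTL3 to METTL14 counts uses the same reads without scaling: in K562, summed over libraries, it was 1.32 (95% exact interval 1.23 to 1.42) in Input and 0.231 (0.0422 to 0.840) in IP. Over the libraries the exact permutation p was 0.1, or 0.175 after adjustment. ZC3H13 to WTAP was 1.00 ± 0.0213 in K562 Input and 1.73 ± 1.12 in IP (SD, n = 3, exact permutation p = 0.4). ALKBH5 to FTO was 0.168 ± 0.00483 and 0.172 ± 0.0838 (SD, n = 3, exact permutation p = 0.9). METTL3 to YTHDC1 was not tested in K562, as IP replicate 1 held 0 YTHDC1 counts. None of the other 7 genes was called in the interaction, with differences from -0.25 for ZC3H13 to 0.81 for ALKBH5 and standard errors from 0.22 to 1.07. These values depend on the joint scaling too. FTO was at -0.04 here, while its separate fits gave -0.69 in K562 and -1.78 in mESC. For ALKBH5 the separate fits gave -0.75 in K562 and -2.69 in mESC. With library size scaling alone 1 of the 8 genes was called higher in K562.

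The Input libraries allowed the levels of the 8 genes to be compared within and between the lines, per length. Values are relative within a library, so less RNA of a gene per cell and fewer cells that carry it cannot be told apart. The lengths used were annotated exon and the gene body not shared with a gene on the same strand, and since the counts covered introns the latter is nearer to what was counted.

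Per kb of exon, mESC Input levels were 68.3 ± 1.90 CPM per kb for Zc3h13, 60.8 ± 0.964 for Fto, 27.6 ± 0.463 for Wtap, 16.3 ± 0.305 for Rbm15 and 12.9 ± 0.383 for Alkbh5 (SD, n = 3). Ythdc1 at 7.23 ± 0.261 and Mettl3 at 7.04 ± 0.236 overlapped, and Mettl14 was last at 4.22 ± 0.221 (SD, n = 3). Per kb of unshared gene body the order changed, with 3 genes at the same rank. Rbm15 came first at 14.6 ± 0.274 CPM per kb, before Zc3h13 at 7.15 ± 0.199, Wtap at 6.30 ± 0.106 and Ythdc1 at 5.05 ± 0.182 (SD, n = 3). Alkbh5 at 3.502 ± 0.104 and Mettl3 at 3.47 ± 0.116 overlapped, and Fto fell back to 2.29 ± 0.0363, above Mettl14 at 1.76 ± 0.0919 (SD, n = 3). Mettl14 was thus the lowest of the 8 in mESC by either length.

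In K562 RBM15 was first by either length, at 21.3 ± 0.533 CPM per kb of exon and 12.2 ± 0.304 per kb of unshared body, and YTHDC1 was last, at 1.44 ± 0.0994 and 0.255 ± 0.0176 (SD, n = 3). Per kb of exon FTO at 12.9 ± 0.0761 and ALKBH5 at 12.9 ± 0.383 overlapped, after WTAP at 16.6 ± 0.108 and before ZC3H13 at 10.4 ± 0.193, METTL3 at 8.64 ± 0.357 and METTL14 at 5.63 ± 0.358 (SD, n = 3). Per kb of unshared body METTL3 came next at 3.83 ± 0.159 followed by WTAP at 3.46 ± 0.0225, and no neighbours overlapped (SD, n = 3).

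Between the lines, 4 of the 8 genes were lower and 4 higher in K562 per exon length, among 12905 genes of which 94.1% were called, 49.9% lower and 44.1% higher. The log2 difference, K562 against mESC, was -2.49 (SE 0.03) for ZC3H13, -2.103 (SE 0.07) for YTHDC1, -2.01 (SE 0.02) for FTO and -0.50 (SE 0.03) for WTAP. With the unshared gene body as length all 4 stayed lower, ZC3H13 at -2.36, FTO at -1.55, WTAP at -0.50 and YTHDC1 at -3.95, the last with the widest range over lengths (-3.16 with the whole gene body). METTL3 was higher by either length, at 0.52 (SE 0.05) and 0.50. RBM15 was higher at 0.62 (SE 0.03) per exon and 0.09 per unshared body, and lower at -0.27 with no length term. METTL14 and ALKBH5 changed direction with the length: 0.64 and 0.22 per exon, and -0.10 (adjusted p = 0.102, edgeR) and -0.66 per unshared body. These fitted values use library totals of length-scaled counts, so small ones can differ in sign from plain CPM per kb: RBM15 was lower in K562 per unshared body in CPM per kb, and ALKBH5 overlapped per exon. The adjusted p-values of the 4 genes lower per exon were at most 1.23e-20 (edgeR).

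**Figure D3:**
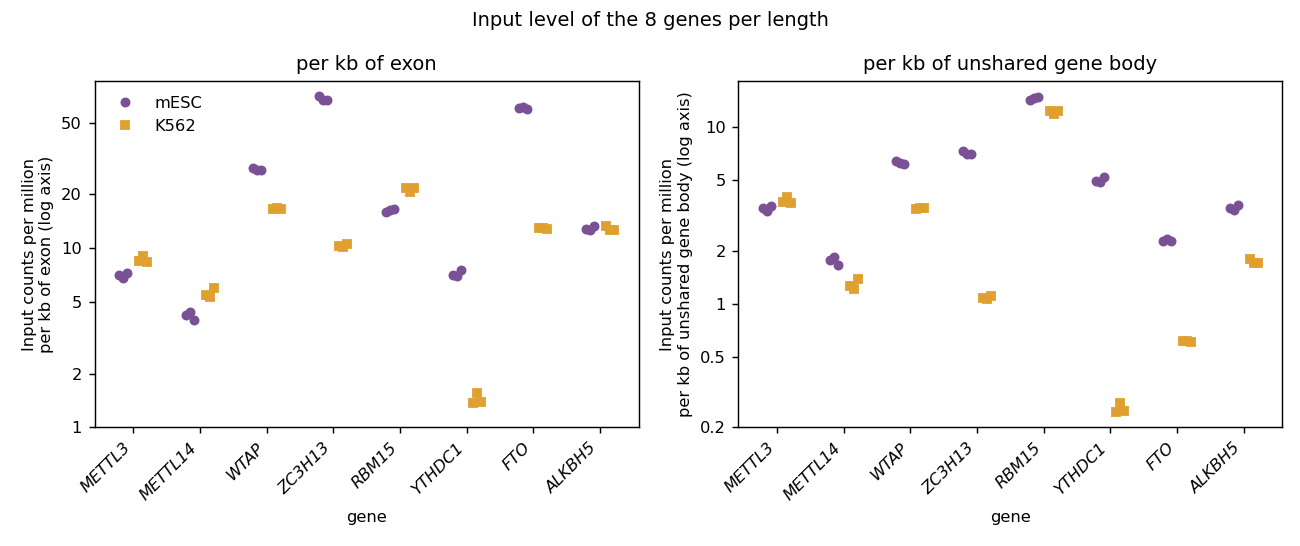
Input level in CPM per kb (log axes) of each gene in the 3 mESC libraries (purple circles) and the 3 K562 libraries (yellow squares), per kb of exon on the left and per kb of unshared gene body on the right. ZC3H13, YTHDC1, FTO and WTAP are lower and METTL3 higher in K562 in both panels, METTL14 and RBM15 are higher on the left and lower on the right, and ALKBH5 overlaps on the left and is lower on the right.

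Peaks deposited for the 3 mESC IP libraries touched 1 of the 8 genes. Fto held 6 peaks, all of 150 bp, all in introns and each in 1 of the 3 replicates, while Mettl3, Mettl14, Wtap, Zc3h13, Rbm15, Ythdc1 and Alkbh5 held none. Per length, Fto had 16.9 peak regions per Mb and the tested genes together 16.1 per Mb. Of all tested genes 41.2% held a peak region. Of the 35162 regions of the whole lists 86.3% came from 1 replicate. In Fto 1 of 6 peaks lay on the recorded strand of the gene, and over all regions that touch exactly 1 gene 40.3% did.

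The peaks in Fto differed in base content, read on their recorded strand from GRCm38. The peak on the strand of the gene, chr8:91386397-91386546 in replicate 1, lies 72.9 kb from the start of Fto and had 4.67% cytosine, with 92.0% of its bases masked as repeats. The close pair of the same replicate on the opposite strand, chr8:91414144-91414293 and chr8:91414444-91414593, had 10.7% and 10.0% cytosine and was masked over its whole length. The peak of replicate 2, chr8:91576259-91576408, had 27.3% cytosine with no base masked. In replicate 3, chr8:91626074-91626223 had 41.3% cytosine with 43.3% masked, and chr8:91631538-91631687 had 22.0% with 16.0% masked. Over all regions the median cytosine share on the recorded strand was 25.3%, and 6.70% of regions had under 11% cytosine. GC content, which does not depend on the strand, was 51.3%, 66.7% and 66.0% for the peaks of replicate 1. It was 54.7% for the peak of replicate 2 and 59.3% and 39.3% for those of replicate 3, with a median of 50.7% over all regions. The low cytosine shares in replicate 1 thus hold for the recorded strand only.

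**Figure D4:**
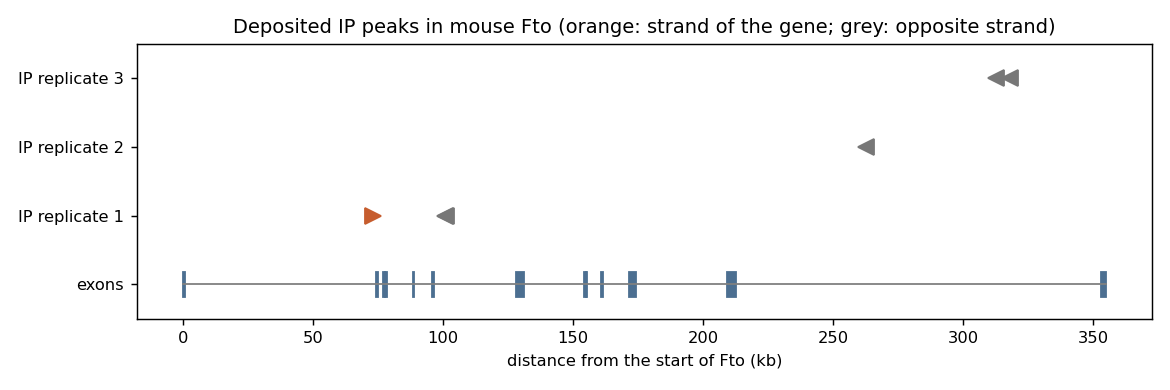
Map of mouse Fto with distance from its start in kb on the x axis, exons of all isoforms as blue blocks and the 6 deposited peaks as triangles in the row of the IP replicate that holds them, orange on the strand of the gene and grey on the opposite strand. The 2 grey peaks of replicate 1, at 100.6 and 100.9 kb, overlap at this scale. No peak lies on an exon, and the replicates share none.

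Other genes of the m6A pathway, 26 in lists by role, stood beside the 8. In mESC 25 of the 26 passed the filter and 25 were lower in IP, with log2 values from -2.90 to -1.02 and a median of -2.01. Over all genes tested 42.1% were lower, and over protein-coding genes 50.2%, with a median of -0.70. In K562 7 of 25 were lower and 4 higher, against 16.8% lower and 15% higher over all genes tested, so the share higher was close to the background. Over protein-coding genes of K562 18.8% were lower and 14.0% higher. Mouse Rbm15b lies wholly within a gene on the same strand and had 0 counts, and human RBM7 had a mean of 0.118 CPM in Input, so their values between the lines are not printed, although both stayed in the counts.

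Of the other subunits of the writer complex, Virma, a large scaffold, had a log2 IP/Input of -1.90 (SE 0.15) in mESC and -0.27 (SE 0.33) in K562, and Cbll1, a ubiquitin ligase of the complex, -1.80 (SE 0.34) and 0.38 (SE 0.39). The 6 further methyltransferase genes were all lower in mESC, and in K562 TRMT112, the partner of METTL5, was the 1 higher (log2 2.85, SE 0.82). It had 2.26 CPM in K562 Input and 19.3 CPM in K562 IP, where 3 counts stood for 27.0 to 32.2 CPM. Mouse Trmt112 had 1.13 CPM in IP, where 3 counts stood for 5.06 to 6.34 CPM. TRMT112 was also called higher in the interaction, on the same few reads. Of the 6 genes Mettl16, which methylates the U6 snRNA, was at -2.01 (SE 0.13) in mESC and -0.29 (SE 0.25) in K562.

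The 4 other YTH readers, Ythdf1, Ythdf2, Ythdf3 and Ythdc2, were lower in mESC, from -2.77 to -2.09, and in K562 YTHDF3 at -0.95 (SE 0.31) and YTHDC2 at -0.92 (SE 0.28) were lower. Of 8 further RNA-binding readers all were lower in mESC, while in K562 IGF2BP2 (-1.02), IGF2BP3 (-0.86) and FMR1 (-1.24) were lower and HNRNPA2B1 (1.11), RBMX (0.69) and PRRC2A (0.71) higher. The interaction was higher in K562 for HNRNPA2B1, HNRNPC, RBMX and PRRC2A and lower for IGF2BP2. Of the genes of nuclear exosome targeting, Mtrex was at -2.55 (SE 0.09) in mESC and -0.85 (SE 0.22) in K562, and Zcchc8 at -1.46 (SE 0.14) and -0.97 (SE 0.27). Mat2a, which makes the methyl donor, was at -2.59 (SE 0.11) in mESC and 0.46 (SE 0.21) in K562 in the separate fits. In the interaction, with the 12 libraries scaled together, its difference was 1.92 (adjusted p = 9.75e-06, edgeR). Over the 26 genes, with RBM15B and RBM7 among those not called, 8 were higher and 1 lower in that interaction, against 9.73% higher and 19.6% lower over all 14053 genes. Its split depended on scaling, as 33.1% of all calls were higher under TMM and 48.0% with library size alone.

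The genes whose pattern was most like that of FTO over 3 fitted log2 values (IP/Input in mESC, IP/Input in K562 and K562 over mESC Input) were KMT2A, MCL1 and PCSK6, at Euclidean distances of 0.0816, 0.102 and 0.149 among 4320 genes with at least 20 CPM in every group. For YTHDC1, itself below that level, the nearest were TFG, LIG1 and RUVBL1, at 0.150, 0.152 and 0.168. For METTL3, also below it, the nearest, AREL1, lay at 1.02. These distances describe 3 values per gene that share their Input libraries.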

How the data were processed

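The files deposited by the authors hold unnormalized counts for every gene of 12 libraries, and a peak list for each mESC IP library whose coordinates are the other kind of value used. According to the methods of the study and the submitters' processing notes, Trimmomatic 0.39 served for trimming and HISAT2 2.1.0 for alignment to mm10 or hg38 with spike-ins, SAMtools 1.16.1 separated the strands, and MACS2 2 called peaks per library and strand. The count files end in the summary lines of HTSeq, which stayed out of library sizes (19.0% to 71.7% of records). Spike-in reads were not used here.

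Members and lists were chosen with earlier results of these data known. All 8 members were named, and of 26 other pathway genes at most 3 of each list by mean Input level. Genes named outside this (TRMT112, Ythdf1, HNRNPA2B1, HNRNPC, RBMX, FMR1, PRRC2A) were chosen after their values were seen. Positions came from GENCODE M21 (GRCm38) and 44 (GRCh38), other releases than the study's, so overlaps in its own release were not analysed here. Of the identifiers 99.9% and 99.2% matched.

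Genes passing filterByExpr were tested with edgeR 4.0.16 (glmQLFit, glmQLFTest) in R 4.3.3, with TMM scaling and Benjamini-Hochberg adjustment over all genes at 0.05. The standard error was the absolute log2 divided by the root of F. Between lines an offset of log length was used, with library totals and scaling factors from length-scaled counts. Its first version took scaling factors from counts not corrected for length, failed on simulated data and was replaced. On simulated data, 200 of 200 genes changed by 2 on the log2 scale were recovered in each of the 4 fits, over 20244, 14522, 14053 and 12905 genes. In the same order 6.98%, 2.44%, 6.98% and 7.41% of calls were false, against a threshold of 0.05. Few genes were changed there, while 82% of genes were called in mESC and 94.1% between Input levels. The simulation therefore does not test the choice of scaling in these data. Exon length was set as the length for levels before the counts were found to cover gene bodies, so both are given. Intervals account for counting error alone, as PCR copies were not told apart by molecular identifiers. A floor of 3 counts stood for 5.06 to 6.34 CPM in mESC IP and 27.0 to 32.2 CPM in K562 IP. Alternatives covered scaling, filters, DESeq2 1.42.0, GC offsets, thinned Input, replicate block and each library left out. The peak comparison was a count of overlaps of at least 1 bp, after removal of repeated lines, merged over replicates per strand.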

Additional observations from a re-analysis of the deposited data

Results flagged for a closer look

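METTL3 differed between the cell lines in IP/Input, by -2.69 on the log2 scale (K562 minus mESC, SE 0.77, adjusted p = 0.00838, edgeR interaction over 12 libraries). It was singled out because the test of the difference itself passed the threshold. The value rests on 3 METTL3 counts in K562 IP (0, 1 and 2) and 56 in mESC IP. Its size also depends on scaling the 12 libraries together: the separate fits gave -2.61 in K562 and -1.05 in mESC. The median difference over all genes in the joint fit was -0.30. The METTL3 difference kept its sign under the alternatives run, from -3.78 to -2.07, but was not called without K562 IP replicate 1 or without a filter on low counts. Groups of 3 libraries are too small for a search for single outlying libraries. The difference cannot be told apart from species, cell line or library preparation.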

How the results depend on the processing

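In mESC 8 members stayed lower under the alternatives other than library size scaling (7) and Input thinned to IP depth (5, with Mettl3 at 0.15). The count of members lower in K562 went from 3 to 6 without a filter on low counts (8237 genes called in place of 4627), to 1 with gene body GC as an offset, and to 0 with Input thinned (1014 called); with K562 Input summed to 1 sample 3026 were called and 2 members. Values that changed sign in K562, none of them called, were METTL14 at 0.0299 with RLE, 0.12 with library size, 0.0285 with DESeq2, 0.28 with exon GC, 0.36 with gene body GC and 0.0739 with Input thinned, YTHDC1 at 0.0395 with exon GC, 0.21 with gene body GC and 1.36 with Input thinned, ZC3H13 at 0.20 with gene body GC and RBM15 at 0.25 with Input thinned. For the difference between lines, members lower went from 1 to 0 without a filter and members higher from 0 to 2, or to 1 with library size alone, and 1819 genes were called in place of 4125 with Input thinned. DESeq2 gave 6065. ZC3H13 turned to 0.12 with library size, 0.32 without a filter and 0.0758 with exon GC, and FTO to 0.0258 with RLE, 0.0255 with DESeq2, 0.33 with library size, 0.53 without a filter, 0.21 with gene body GC and 0.0912 with Input thinned. Between Input levels, members higher went from 4 to 2 with no length term, gene body length or unshared gene body length: RBM15 at -0.27 and ALKBH5 at -0.73 with no length, METTL14 at -0.0382 and ALKBH5 at -0.60 with gene body, METTL14 at -0.10 and ALKBH5 at -0.66 with unshared body. In the order of levels 3 of 8 genes kept their rank in each line with either gene body length. Peaks in members went from 6 to 1 on the strand of the gene and to 0 in at least 2 replicates.

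With single libraries left out, members lower ranged from 8 to 8 in mESC, 2 to 3 in K562, 0 to 1 in the difference and 4 to 4 between Input levels, and members higher from 0 to 0, or 4 to 4 between Input levels. Genes called ranged from 15245 to 16034, 3562 to 4511, 3210 to 4357 and 11954 to 12105 in the same order, and peaks in members from 3 to 5, the lowest without mESC IP replicate 1. Sign changes were in METTL14 (-0.28 to 0.13) and YTHDC1 (-1.36 to 0.31) in K562, FTO (-0.0975 to 0.0246) and YTHDC1 (-0.56 to 1.15) in the difference, and the K562 ratio ALKBH5 to FTO (-0.34 to 0.36). The replicate block left 2 members lower in K562, where WTAP (adjusted p = 0.0522, edgeR) was lost, and changed no other call among members. Same-numbered IP and Input libraries deviated together with correlations of at most 0.0148, so the numbers give no pairing. The cause of these changes was not tested. In K562 IP 3 counts stood for 27.0 to 32.2 CPM, more than the level of YTHDC1 in Input.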
